A study of Eurytemora affinis with 15 samples.

Results

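The higher concentration of sediment elutriate from Tancarville was set against water alone in adult males of the copepod Eurytemora affinis, by RNA sequencing of whole animals. The animals came from the Seine estuary, were acclimatised in the laboratory at 15 psu and 15 °C, and were then exposed for 72 h. The exposed animals were kept in Tancarville elutriate at 2500 mg/L and the controls in water only, with 3 libraries in each group and 30 males pooled for each library. The series also holds Tancarville elutriate at 350 mg/L and Fatouville elutriate at 2500 and 350 mg/L, again with 3 libraries each, which gives 15 libraries in 5 groups. The genes described are those with a normalised read count of at least 10 in at least 3 of the 6 libraries compared. This rule gave 17964 of 23728 genes.

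Calanoid copepods are small planktonic crustaceans that graze on algae and feed fish larvae, and Eurytemora affinis is a leading species of the brackish zone of many northern estuaries. An elutriate is the water phase recovered after sediment has been shaken with water, and it carries what the sediment releases, dissolved or as fine particles. Such extracts are used in sediment toxicology to expose animals that live in the water column rather than in the mud. The genes carry LOC identifiers, which stand for gene models without a symbol. The sources used here do not pair these identifiers with names, so gene functions, and marker genes for sex and stage, are not analysed here.

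Depth was even across the 6 libraries, with 15.0, 13.6 and 17.2 M reads in genes for replicates 1, 2 and 3 at Tancarville 2500 mg/L and 17.1, 16.5 and 15.9 M for Control 1, 2 and 3. The median of all described genes and libraries was 197 reads. Of the 17964 genes, 16612 reached 10 in all 6 libraries. The value of 10 was reached in the 3 exposed libraries and in no control by 56 genes, and in the 3 controls and no exposed library by 14, so these entered through 1 group alone. Genes that just entered, with 10 reached in exactly 3 libraries, numbered 401 and had a median mean level of 10.9, and the 603 with exactly 2 such libraries, which were left out, had a median of 9.36. Libraries within a group differed in their whole profiles. Replicate 3 at Tancarville 2500 mg/L and Control 3 lay apart from their groups, so the main counts are also given without them.

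Few genes changed by a margin clear of the spread between pools. Differences were tested with limma on log2(value + 1) in 1 fit of all 15 libraries, and p-values were adjusted by the Benjamini-Hochberg method over 18921 tested genes. Adjusted p fell below 0.05 for 4 genes, which is 0.0211% of the genes tested, with 1 higher (0.00529%) and 3 lower (0.0159%) after exposure. All 4 were among the 17964. The 3 genes that fell were LOC111712699, LOC111712343 and LOC111712470, and the gene that rose was LOC111708389. The third of the genes that fell was named after its values were seen. In pooled whole animals, fewer cells of a type and less RNA per cell cannot be told apart.

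LOC111712699 showed the largest fall of the 3. It had 1256, 589 and 699.99 normalised counts in replicates 1, 2 and 3 at Tancarville 2500 mg/L, against 3348, 3434 and 3044 in Control 1, 2 and 3. All exposed libraries lay below all controls, and replicate 1 stood well above the other 2 exposed libraries. The exposed mean of 848 ± 357 was 25.9% of the control mean of 3275 ± 205 (SD, n = 3 each), with a log2 fold change of -2.02 (95% interval -2.61 to -1.44, limma adjusted p = 0.0289). The authors' deposited Cook's distance, a score of the weight of a single library in a gene's fit, was 0.836 for replicate 1. That exceeded the largest distance of 99.2% of the genes described, whose median was 0.0751. Without replicate 1 the log2 fold change was -2.35 (limma adjusted p = 0.000752).

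LOC111712470 had the smallest p of the comparison in the limma fit. Its values were 742, 539 and 708 after exposure, against 1336, 1489 and 1549 in the controls, and the ranges were far apart. Means were 663 ± 109 in exposed pools and 1458 ± 109.5 in controls (SD, n = 3 each), giving a log2 fold change of -1.15 (95% interval -1.44 to -0.85, limma adjusted p = 0.00857). LOC111712343 had 415, 299 and 326 after exposure, against 684, 771 and 923 in the controls. Its exposed mean of 347 ± 60.9 was 43.7% of the control mean of 793 ± 121, a log2 fold change of -1.19 (95% interval -1.54 to -0.84, n = 3 each, limma adjusted p = 0.0207). In both genes replicate 2 was the lowest exposed library and Control 3 the highest control.

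LOC111708389 was the only gene to rise past the threshold in this fit, and its change was smaller and even across pools. It had 854, 964 and 799 normalised counts after exposure, against 515, 574 and 559 in the controls. The exposed mean of 872 ± 84.2 was 159% of the control mean of 549 ± 30.4 (SD, n = 3 each). The log2 fold change was 0.66 (95% interval 0.45 to 0.87, limma adjusted p = 0.0289).

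**Figure D1:**
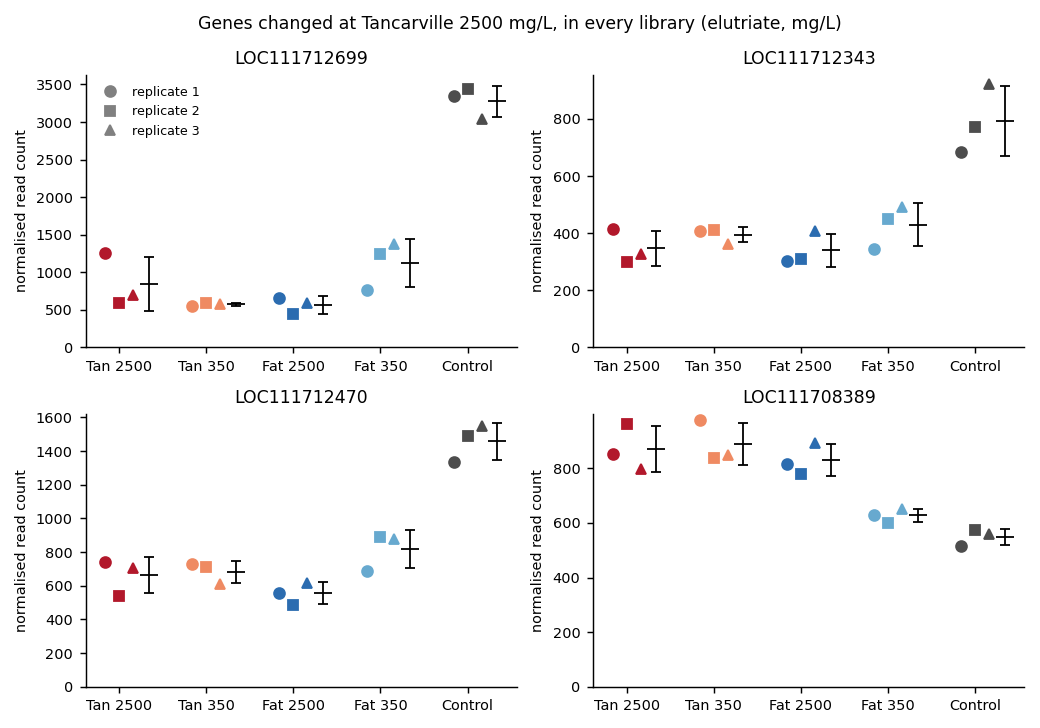
Normalised read counts of the 4 changed genes in all 15 libraries, with points for replicates 1 to 3 and bars for the mean ± SD of each group of 3. LOC111712699, LOC111712343 and LOC111712470 lay below all controls in each Tancarville 2500 mg/L library, and LOC111708389 above them, with replicate 1 of LOC111712699 at 1256.

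How firmly these genes passed depended on the method. DESeq2 on the recovered reads gave adjusted p of 6.94e-11 for LOC111712699, 1.62e-10 for LOC111712470, 1.49e-07 for LOC111712343 and 3.21e-06 for LOC111708389. By edgeR on the same reads the same 4 genes passed (0.0211% of 18921), with adjusted p of 0.0432 to 0.0477. Deviations of same-numbered libraries of the 2 groups correlated at 0.186, 0.167 and 0.428, and no label states a shared batch. With the replicate as a block LOC111712699 and LOC111708389 no longer passed, each with a limma adjusted p of 0.123. LOC111712470 passed in that fit at 0.0374 and LOC111712343 at 0.0425. LOC111698810, named after its values were seen, passed with the block though not without it. It had 1418, 1057 and 1052 normalised counts after exposure, against 566, 741 and 417 in the controls, with a limma adjusted p of 0.0425 in the blocked fit and 0.465 without the block. DESeq2 also called it (adjusted p = 0.00252). LOC111698810 passed in only these 2 of 20 alternatives, and with the block in the 6 libraries alone its limma adjusted p was 0.269. Counts of called genes were 2, 0 and 0 without Control 1, 2 and 3, and 3, 0 and 1 without replicates 1, 2 and 3 at Tancarville 2500 mg/L. Neither a fit of the 6 libraries alone nor a fit without Control 3 and exposed replicate 3 called any gene, with 1661 and 671 genes at an unadjusted limma p under 0.05. Across all 20 alternatives the log2 fold changes ran from -2.35 to -1.80 for LOC111712699 and -1.33 to -1.04 for LOC111712343. They ran from -1.23 to -1.004 for LOC111712470 and 0.59 to 0.74 for LOC111708389. A change of the gene filter, the replicate block or the estimate of spread, or a fit of the 6 libraries alone, leaves these values unchanged by construction.

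These 4 genes were then followed through the other exposures, which share the controls with the comparison above. At Tancarville 350 mg/L, LOC111712699 had 556, 591 and 576 normalised counts, and at Fatouville 2500 mg/L it had 664, 439 and 590. Its mean was highest of the 4 exposed groups at Fatouville 350 mg/L, at 1123 ± 322 (SD, n = 3). LOC111712343 averaged 395 ± 26.8 at Tancarville 350 mg/L and 340 ± 58.7 at Fatouville 2500 mg/L, and LOC111712470 averaged 683 ± 65.4 and 555 ± 64.6 (SD, n = 3 each). LOC111708389 averaged 889 ± 76.6 at Tancarville 350 mg/L, 831 ± 57.9 at Fatouville 2500 mg/L and 627 ± 25.6 at Fatouville 350 mg/L (SD, n = 3 each). For each of the 4 genes the values at Tancarville 2500 mg/L overlapped with those at Tancarville 350 mg/L and at Fatouville 2500 mg/L. The order of these 3 groups therefore did not exceed their spread.

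No difference of the 4 genes between Tancarville 2500 mg/L and Tancarville 350 mg/L, or between Tancarville 2500 mg/L and Fatouville 2500 mg/L, passed the test of that difference. For LOC111712699 the log2 difference was 0.48 from Tancarville 350 mg/L (95% interval -0.10 to 1.07, limma adjusted p = 0.857) and 0.53 from Fatouville 2500 mg/L (95% interval -0.05 to 1.11, limma adjusted p = 0.298). For LOC111712470 the intervals were -0.35 to 0.25 and -0.05 to 0.54, and for LOC111712343 they were -0.55 to 0.15 and -0.32 to 0.38. LOC111708389 had the narrowest, -0.24 to 0.18 and -0.14 to 0.28. Differences of a size within these intervals were not excluded with 3 pools per group.

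Across all described genes most differences were small. The log2 fold change lay between -0.52 and 1.23 for the central 95% of genes, with a median of -0.02, and 91.9% of genes differed by less than 1.5-fold. The upper tail was the longer one. At least 2-fold higher after exposure were 595 genes (3.31% of those described, against 4.52% of all tested), and at least 2-fold lower were 52 (0.289%, against 0.576% of all tested). At least 4-fold differences were seen in 226 genes upward and 2 downward. A typical gene had a standard error of 0.18 on the log2 scale, so that the median 95% interval reached 0.39 to either side of the estimate. Among the 595 higher genes the median standard error was 0.89, and the interval included 0 for 299 of them.

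**Figure D2:**
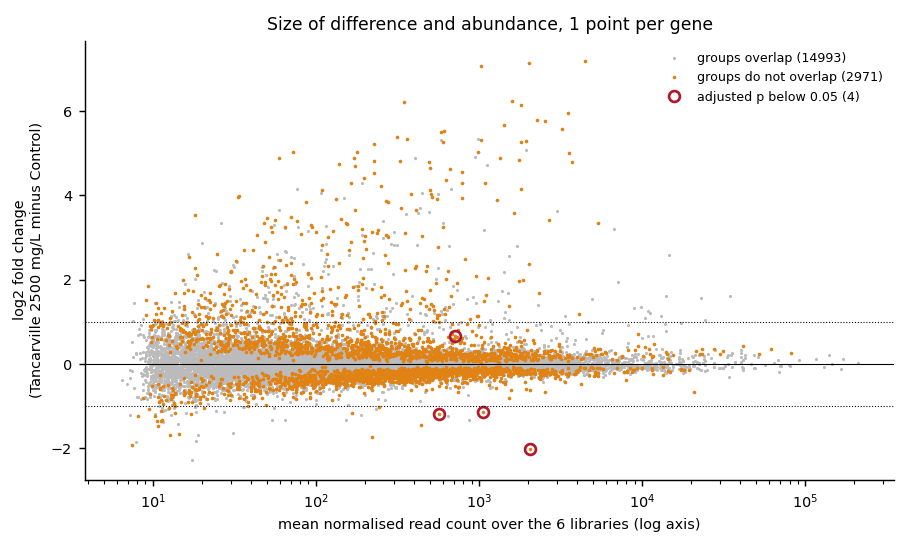
Log2 fold change of each described gene (Tancarville 2500 mg/L minus Control, vertical axis) against its mean normalised count over the 6 libraries (log axis). Orange points are the 2971 genes whose groups do not overlap, grey points the other 14993, rings mark the 4 called genes, and dotted lines mark 2-fold; the large positive differences lie over the whole range of abundance. Of the rings, 3 lie below the lower 2-fold line and 1 inside the lines.

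Genes whose 2 groups did not overlap were about as many in each direction, but unlike in size, and made up 16.6% of all tested genes. All 3 exposed libraries lay above all 3 controls in 1508 described genes (8.39%, against 8.62% of all tested) and below them in 1463 (8.14%, against 7.93%). The balance depended on scaling, with 1010 above and 2183 below after quantile normalisation. Genes above the controls had a median log2 fold change of 0.44, and 334 of the 1508 were at least 2-fold higher. Those below had a median of -0.26, and 22 of the 1463 were at least 2-fold lower, while 1339 differed by less than 1.5-fold. Before adjustment, limma gave p under 0.05 for 1506 of the tested genes (7.96%), 881 higher (4.66%) and 625 lower (3.3%).

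The 2 directions also differed by abundance. Genes below the controls without overlap made up 4.07% of the 2383 genes with a mean under 30 normalised counts and 10.7% of the 4485 genes with a mean of 300 to 1000. For genes above the controls the shares were 7.89% and 7.92%. Of the 52 genes at least 2-fold lower, 34 had a mean under 30, and the median mean level was 17.3 for these 52 and 93.2 for the 595 higher ones, against 203 over all described genes. The 4 called genes all lay between 300 and 3000. Among the 100 most abundant described genes none was called, against 0.0211% of all tested. Of these 100, 11 lay above the controls without overlap and 2 below, against 8.62% and 7.93% of all tested. Log2 fold changes in these 100 ran from -0.67 to 1.62.

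The exposed libraries held more genes far above the controls than the controls did, while the numbers far below overlapped. At least 2-fold above the mean of the 3 controls were 451, 558 and 1036 genes in replicates 1, 2 and 3 at Tancarville 2500 mg/L. Set against the mean of the other 2 controls, 172, 293 and 324 genes were that far above in Control 1, 2 and 3. Downward, the exposed libraries had 215, 275 and 206 such genes, against 297, 247 and 312 in Control 1, 2 and 3. The control counts rest on a mean of 2 libraries and the exposed counts on a mean of 3. Replicate 3 had the most genes above the controls and Control 3 the most of the controls in both directions.

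**Figure D3:**
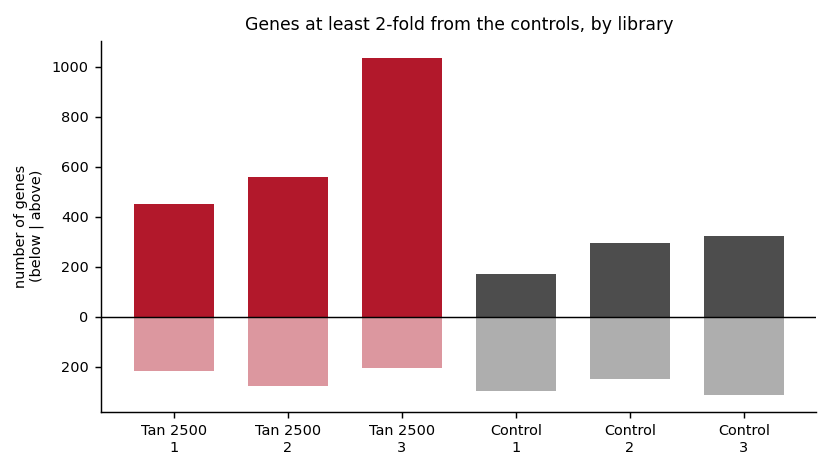
Number of described genes at least 2-fold above (up) or below (down, paler) the controls in each library; exposed libraries are set against the mean of the 3 controls, and each control against the mean of the other 2. Upward counts were 451 to 1036 in exposed libraries and 172 to 324 in controls, and downward counts overlapped.

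The genes at least 2-fold higher varied widely from pool to pool within the exposed group. These 595 genes were chosen by this contrast, and their levels are given as a description. Their median level was 40.3, 113 and 264 normalised counts in replicates 1, 2 and 3 at Tancarville 2500 mg/L, against 20.6, 27.7 and 18.9 in Control 1, 2 and 3. Replicate 3 held the highest exposed value for 445 of them (74.8%), replicate 2 for 96 and replicate 1 for 54. The median SD over the pools was 1.28 on the log2 scale in the exposed group and 0.51 in the controls. Together the 595 genes took 3.58%, 1.54% and 6.41% of the reads of the exposed libraries, against 0.629%, 1.45% and 0.547% in the controls. Without replicate 3 the count of genes at least 2-fold higher was 423, and without replicate 3 and Control 3 it was 407. The count of genes at least 2-fold lower was 116 without replicate 3, 84 without replicate 1 and 106 and 92 without Control 2 and Control 1.

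The same genes also varied between pools in the other groups. Their median SD on the log2 scale was 1.10 at Tancarville 350 mg/L, 1.12 at Fatouville 2500 mg/L and 0.76 at Fatouville 350 mg/L. The median level of the 595 at Tancarville 350 mg/L was 136, 40.8 and 25.6 in replicates 1, 2 and 3, and at Fatouville 2500 mg/L it was 280, 97.5 and 77.5. At Fatouville 350 mg/L it was 33.9, 53.6 and 21.2, with replicate 3 close to the controls. The 52 lower genes had medians of 7.83, 8.17 and 9.40 at Tancarville 2500 mg/L and 11.1, 12.8 and 11.8 at Tancarville 350 mg/L, against 19.2, 17.2 and 25.5 in Control 1, 2 and 3. At Fatouville 2500 mg/L their medians were 19.96, 22.3 and 23.9, within the control range. These medians join genes that moved apart. By group mean, 15 of the 52 were at least 2-fold above the controls there and 9 at least 2-fold below.

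**Figure D4:**
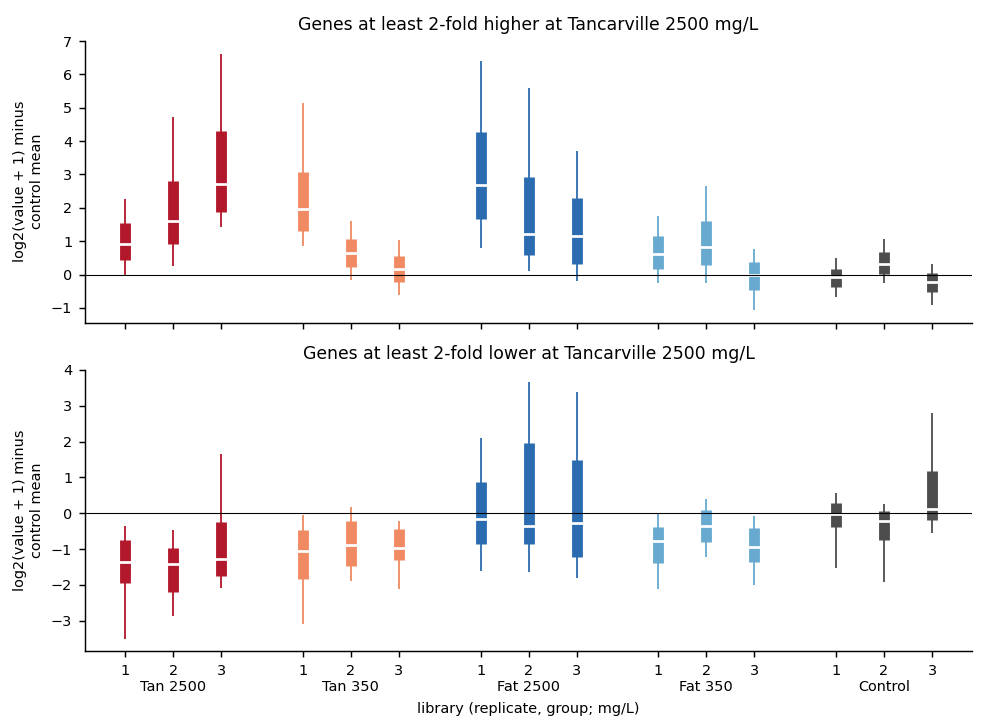
Log2(value + 1) of the genes at least 2-fold higher (595, top) or lower (52, bottom) at Tancarville 2500 mg/L, relative to the mean of the 3 controls, in each of the 15 libraries; thick bars span the 25th to 75th percentile, thin lines the 10th to 90th percentile, and white ticks the median. In the top panel the medians were 0.92, 1.61 and 2.70 in replicates 1, 2 and 3 at Tancarville 2500 mg/L, and Tancarville 350 mg/L replicate 1 lay at 1.95.

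A smaller set stood above the control mean in every exposed pool. Of the 595 higher genes, 156 were at least 2-fold above the control mean in each of the 3 exposed libraries. The values of 147 did not overlap with the controls, which this choice itself favours, against 8.62% of all tested genes. Their median level was 40.9, 115 and 438 normalised counts in replicates 1, 2 and 3, against 12.2, 17.2 and 10.4 in Control 1, 2 and 3. The median log2 fold change was 2.97, with a median standard error of 1.08. None of the 156 was called by limma or edgeR, and the smallest limma adjusted p among them was 0.104. DESeq2 on the recovered reads called 84 of these 156, against 1.14% of all tested genes called higher, and the choice of the 156 favours such calls. Without replicate 3, 166 genes were at least 2-fold above in both other exposed libraries. Leaving out an exposed library removes a condition and cannot lower this count, so it does not show that the set is free of replicate 3. Without Control 3 there were 141, and without replicate 3 and Control 3, again with a condition fewer, 154. Of the 156 genes, 36 reached the level of 10 only through the exposed group. In the other direction 7 of the 52 lower genes were at least 2-fold below the control mean in each exposed library, LOC111712699 among them.

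The widest differences came with the widest spread. At least 16-fold higher after exposure were 61 genes, and none was 16-fold lower. Median levels of these 61 were 25.7, 434 and 2689 normalised counts in replicates 1, 2 and 3 at Tancarville 2500 mg/L, against 8.45, 15.3 and 7.57 in Control 1, 2 and 3. Replicate 3 was the highest exposed library for 58 of them and replicate 1 the lowest for 55. Elsewhere in the series their medians in replicates 1, 2 and 3 were 1683, 1141 and 109 at Fatouville 2500 mg/L. They were 749, 13.3 and 12.8 at Tancarville 350 mg/L and 19.97, 27.3 and 9.65 at Fatouville 350 mg/L. These 61 genes took 0.0237%, 0.386% and 1.86% of the reads of the Tancarville 2500 mg/L libraries and at most 0.00821% of a control. Without replicate 3 the count was 11, and likewise without replicate 3 and Control 3. DESeq2 called 57 of the 61, which were chosen by their size in this contrast, against 1.14% of all tested genes called higher. Limma called none of the 61, with limma adjusted p of 0.506 or more. LOC111710718 had the largest log2 fold change of all described genes, and is named after its values were seen. It had 66.0, 4802 and 21997 normalised counts in replicates 1, 2 and 3, against 12.2, 28.7 and 4.73 in Control 1, 2 and 3. The groups did not overlap, yet the exposed pools differed among themselves by more than replicate 1 differed from the controls. Its log2 fold change was 7.20 with a standard error of 2.62 (limma adjusted p = 0.592, DESeq2 adjusted p = 0.000536). In the other exposures the gene was at 8665, 20.4 and 27.5 at Tancarville 350 mg/L, at 12606, 9830 and 456 at Fatouville 2500 mg/L, and at 39.9, 31.99 and 9.65 at Fatouville 350 mg/L.

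DESeq2 called 236 genes in this comparison (1.25% of those tested), 215 higher (1.14%) and 21 lower (0.111%), and all 4 limma calls were among them. Of the 236, 196 were described genes, 175 higher and 21 lower. For 153 of the 175, replicate 3 held the highest exposed value, and for 118 of them it also held the largest Cook's distance of the 6 libraries. Over all described genes that distance was largest in exposed replicate 3 for 24.2% and in Control 3 for 22.8%, against 12.5% to 14.3% in each of the other 4 libraries. Among the 595 higher genes the share for exposed replicate 3 was 48.2%. Without exposed replicate 3 DESeq2 called 39 genes, 23 higher and 16 lower, and 16 of them were among the 236. Without Control 3 it called 50, of which 42 were among the 236, and without both libraries 15, of which 7 were.

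Some genes were read in 1 group only, and none of them reached 10 in 3 libraries. Reads were present in all 3 exposed libraries and in no control for 28 genes, and in all 3 controls and no exposed library for 24. The median sum over 3 libraries was 6.5 reads for these 28 genes and 5 for these 24. The largest sum was 261 reads among the 28 and 21 among the 24. At this depth none of the described genes was without reads in a whole group while present in every library of the other. The 31 genes with a transfer RNA identifier all fell short of the rule, and their highest value in the 6 libraries was 3.50.

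Whole profiles of the exposed pools were as far from each other as from the controls. The root mean square log2 difference over the tested genes was 0.74 to 1.03 between 2 exposed libraries, 0.47 to 0.79 between 2 controls, and 0.49 to 1.16 between an exposed library and a control. Exposed replicate 1 lay nearer to Control 2 and Control 1, at 0.49 and 0.55, than to exposed replicate 2 at 0.74 or replicate 3 at 1.03. The group held 31.7% of the variance among the 6 libraries (exact permutation p = 0.2 over 20 assignments, n = 3 each, with 0.1 the smallest possible). These assignments did not keep the replicate numbers together. Without exposed replicate 1 the share was 48.4% (exact permutation p = 0.1), and without Control 3 and exposed replicate 3 it was 38.4% (exact permutation p = 0.333), in both cases the smallest p so few libraries allow.

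**Figure D5:**
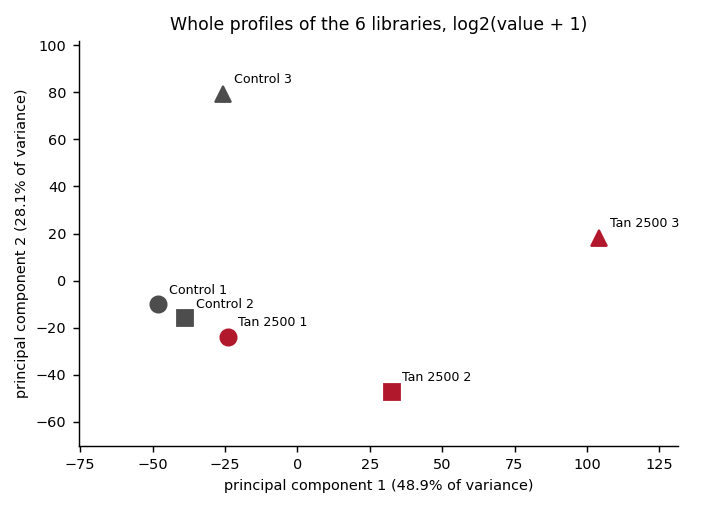
First and second principal components of the 6 libraries on log2(value + 1), holding 48.9% and 28.1% of the variance, with red for Tancarville 2500 mg/L and grey for Control and a marker shape per replicate number. Exposed replicate 3 lies at the far right (104), Control 3 at the top (79.2), and exposed replicate 1 close to Control 1 and 2.

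The spread of single genes was alike in the 2 groups for most genes and wider in the exposed group for some. The median SD on the log2 scale was 0.18 in both groups, and the 90th percentile was 0.56 in exposed pools and 0.48 in controls. An SD above 1 was found for 618 genes in the exposed pools and 298 in the controls. This was described and not tested.

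Against the lower concentration at the same site, no gene passed the limma threshold. Between Tancarville 2500 mg/L and Tancarville 350 mg/L limma called 0 of 18921 genes (0%), with 1086 at an unadjusted p under 0.05 (5.74%), edgeR called 0 and DESeq2 called 2 (0.0106%), both higher. The smallest limma adjusted p was 0.857. At least 2-fold higher at 2500 mg/L were 568 genes (3%) and lower 90 (0.476%). Against Fatouville at 2500 mg/L limma and edgeR also called 0 genes (0%), but 3717 had an unadjusted limma p under 0.05 (19.6%), 1551 higher (8.2%) and 2166 lower (11.4%) at Tancarville. The smallest limma adjusted p was 0.0651, and DESeq2 called 898 (4.75%), 310 higher (1.64%) and 588 lower (3.11%). At least 2-fold higher at Tancarville were 163 genes (0.861%) and lower 631 (3.33%). The count of 0 rested on single pools, since limma called 997 genes without Fatouville 2500 mg/L replicate 1 and 3 without Tancarville 2500 mg/L replicate 3.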

How the data were processed

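The deposited values are a signal, gene read counts that the authors scaled by 1 factor per library, as the values themselves show. Dividing by the value of a single read gave whole reads for 100% of values above 0 in every library (tolerance 1e-06), and these recovered reads went into the count tests. In Fatouville 350 mg/L replicate 1 a read was worth 0.998, so near 1 that the recovery is less certain there. The deposited table also holds a score, Cook's distance, per gene and library. Of tools, HTSeq 0.11.2, STAR, DESeq2 and Salmon appear in the submitters' processing notes, with no role. Not given in the sources used here are the genome build, the annotation and strandedness, so reads of overlapping, antisense or near-identical genes could have gone to either.

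Limma 3.58.1 (R 4.3.3) was fitted on log2(value + 1) with a term per group over all 15 libraries, an intensity trend and robust moderation. Tested genes had to reach 10 in 3 or more of the 15 libraries, 18921 in all, and were called at an adjusted p below 0.05, 2-sided. Fold changes on this scale are too small for genes near 0. edgeR 4.0.16 (quasi-likelihood) and DESeq2 1.42.0 ran on the recovered reads. Libraries of a group differed by more than sampling noise (lowest chi-square divided by its degrees of freedom 11.9), and each was counted once. The labels call them biological replicates, and p-values set each difference against the spread between pools. In the limma fit of 15 libraries that spread was 1 estimate per gene shared by the 5 groups. Root mean square differences and the permutation test used log2(value + 1).

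The labels number the replicates in each group. Deviations from the group means of same-numbered libraries of Tancarville 2500 mg/L and Control correlated at 0.186, 0.167 and 0.428, all over 0.1. The numbers were therefore taken to pair them, from the data and not from a stated shared batch. The main fit had no term for this pairing, and the replicate block is given as an alternative. Correlations are given for these 2 groups only, while the block was also fitted over all 15 libraries. Exposed replicate 2 correlated more with Control 1, at 0.294.

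The rule for named genes took, where identifiers have no names, at most 2 called genes in each direction by fold, and others are marked where they appear. The described genes, comparisons, lists and rules were chosen with earlier results of these data known. The 31 gene lists rely on product names, which 0 identifiers could be matched to, and no list is reported.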

Additional observations from a re-analysis of the deposited data

How the results depend on the processing

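For Tancarville 2500 mg/L against Control, 4 genes were called. The count was 0 in the fit of the 6 libraries alone, in that fit with the replicate block, without intensity trend and robust moderation, and without Control 3 and exposed replicate 3. It was 236 by DESeq2. With the replicate block over all 15 libraries 3 genes were called, 2 of them among the 4. With 1 library left out it was 0 to 3. Quantile normalisation called 3, all lower, in place of 1 higher and 3 lower, and LOC111708389 was not among them (limma adjusted p = 0.0663). Calls were lost in 10, 8, 7 and 12 of 20 alternatives for LOC111712699, LOC111712343, LOC111712470 and LOC111708389, with no change of direction. Alternatives that altered only the filter, the block or the moderation, or used the 6 libraries alone, could not change the direction. Against Tancarville 350 mg/L the count was 0 in each alternative but DESeq2, with 2. Against Fatouville 2500 mg/L it was 0, and 898 by DESeq2, 1 without a filter on low values, 1 without trend and robust moderation, and 0 to 997 with 1 library left out. The replicate block changed neither count. Genes at least 2-fold lower numbered 21 with a pseudocount of 5 and 114 after quantile normalisation, in place of 52. Chosen after seeing the data were the alternatives for these counts, for genes at least 16-fold higher or 2-fold higher in each library and for the DESeq2 calls, those with Tancarville 350 mg/L or Fatouville 2500 mg/L libraries left out, and the whole-profile shares with libraries left out. The cause of these shifts was not tested. Fits of fewer libraries also had fewer residual degrees of freedom. With 3 pools a group, a median gene's interval of 0.39 on the log2 scale limits what can be seen.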
